A study of Mus musculus with 12 samples.

Results

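The expression of footpad skin from beta-catenin knockout embryos was compared with that of wild-type embryos at E15.5, the earliest of the 3 embryonic days sampled. The comparison took the 2 arrays labelled as E15.5 knockout and the 2 labelled as E15.5 wild type, 4 of the 12 arrays of the study, and all 42006 non-control probes on them. The other 8 arrays held the same 2 genotypes at E16.5 and E17.5, again 2 per group. All embryos were labelled C57BL/6. The knockout was described as skin-specific, but the labels used here do not name the driver of the deletion, say how complete it was, or say whether a sample was 1 embryo or a pool. Each array was hybridised with footpad RNA in Cy3 and a common reference in Cy5, a mixture of RNA pooled from cultured mouse cell lines with RNA from 129 embryonic stem cells, and the dyes were not swapped. The measured quantity was the log2 ratio of footpad over reference, as computed by the scanner software. The files pair probes with no gene symbol, so probes are given by the manufacturer's code. For the same reason the level of the deleted gene and the markers of skin cell types were not checked, and the genotype labels stand as given.

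Beta-catenin is the protein through which the canonical Wnt signal reaches the nucleus. In the absence of Wnt it is degraded in the cytoplasm, and when Wnt binds its receptors it accumulates, enters the nucleus and joins TCF and LEF proteins on target genes. It also links cadherins to the actin skeleton at cell junctions. In mice, eccrine sweat glands are formed in the footpads, where they begin in the embryo as placodes that bud from the epidermis, and Wnt, Eda and Shh signals act in the development of such skin appendages. The question addressed by the design was how loss of beta-catenin in skin changed footpad expression over these days, and E15.5 gives its earliest measurement.

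The sequences on which the results turn are printed first, 5′ to 3′ as deposited. Each of these probes is a designed oligonucleotide of 60 bases, and their genome positions were not determined here. Of the probes with the lowest and highest differences, these 4 are shown as examples, 2 lower and 2 higher in knockout, each called under at least 13 alternatives:
Z00008117-1: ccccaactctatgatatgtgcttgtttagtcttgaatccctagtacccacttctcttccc
Z00032669-1: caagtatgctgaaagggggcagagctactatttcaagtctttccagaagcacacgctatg
Z00043839-1: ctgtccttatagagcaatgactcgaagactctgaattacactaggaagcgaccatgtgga
Z00026847-1: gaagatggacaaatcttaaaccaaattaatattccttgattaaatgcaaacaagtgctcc

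The next 5 probes are shown because both dyes were well above background on all 4 arrays, so that their folds rest on detected signal in both genotypes. Their sizes still varied with the processing. The first 3 were lower in knockout and the last pair higher:
Z00030663-1: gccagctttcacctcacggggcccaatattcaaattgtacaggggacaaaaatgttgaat
Z00075496-1: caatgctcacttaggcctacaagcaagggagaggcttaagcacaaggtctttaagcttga
Z00024684-1: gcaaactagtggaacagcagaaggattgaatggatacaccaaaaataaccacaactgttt
Z00048440-1: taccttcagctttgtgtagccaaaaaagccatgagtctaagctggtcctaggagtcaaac
Z00060090-1: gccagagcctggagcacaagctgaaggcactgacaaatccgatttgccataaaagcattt

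Of the 4 probes whose E15.5 difference departed from the differences at the later stages, the 3 that were also called at E15.5 are shown, the first of them by its first 30 bases:
Z00051506-1: catctgtctcccctaccctctcatggtggt
Z00025321-1: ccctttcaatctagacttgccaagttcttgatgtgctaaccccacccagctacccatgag
Z00076863-1: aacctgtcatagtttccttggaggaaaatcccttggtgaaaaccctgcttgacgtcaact

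Sets of probes that overlap in sequence are shown because their members were read from separate spots and differed in the same direction. Capitals mark the longest run of bases that all members of a set share, 24 bases in the first 4 probes and 57 in the last pair:
Z00060322-1: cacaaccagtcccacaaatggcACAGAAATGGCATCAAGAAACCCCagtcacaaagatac
Z00060550-1: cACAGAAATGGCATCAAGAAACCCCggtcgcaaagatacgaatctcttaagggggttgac
Z00060604-1: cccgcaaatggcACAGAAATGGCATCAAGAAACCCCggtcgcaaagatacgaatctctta
Z00060688-1: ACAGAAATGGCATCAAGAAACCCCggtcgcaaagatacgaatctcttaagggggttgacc
Z00025525-1: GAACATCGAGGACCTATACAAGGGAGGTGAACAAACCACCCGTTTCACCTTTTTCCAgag
Z00059502-1: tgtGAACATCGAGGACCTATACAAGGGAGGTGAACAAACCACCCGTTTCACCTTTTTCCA

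Cy3 was well above background at 59.1% and 59.2% of probes on the knockout arrays and at 65.3% and 59.4% on the wild-type arrays of replicates 1 and 2. Probes with Cy3 well above background on at least 2 of the 4 arrays numbered 25685, and 25684 of these, 61.1% of all probes, were tested. A further 16321 probes did not pass, of which 14274 were above background on none of the 4 arrays. The 4 arrays did not group by genotype. Across tested probes, the ratios of knockout replicate 1 correlated at 0.9724 with those of knockout replicate 2, but at 0.9792 and 0.9835 with wild-type replicates 1 and 2. Knockout replicate 2 correlated at 0.9485 and 0.9711 with the same wild-type arrays, and the wild-type arrays correlated with each other at 0.9873. The SD of the log2 difference between replicates was 0.46 in knockout and 0.30 in wild type at E15.5, against 0.23 to 0.31 at the later stages. Knockout arrays lay at positions 1 and 2 of the slide and wild-type arrays at positions 3 and 4, so genotype and position cannot be told apart. The counts of calls over all tested probes are therefore also given without single arrays.

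At E15.5, 535 probes were lower and 408 higher in knockout, 943 in all or 3.67% of the probes tested (limma, Benjamini-Hochberg adjusted p under 0.05). The lower calls made 2.08% and the higher calls 1.59% of tested probes. Among all calls, the lower ones were the larger in size. Their median fold was 1.77, against 1.62 for the higher calls. At 2-fold or more, 170 probes were lower (0.662%) and 48 higher (0.187%), and at 4-fold or more 18 were lower and 7 higher. The differences stood on a background centred near 0, since 89.9% of tested probes differed by less than 1.5-fold and 1.53% by 2-fold or more in either direction.

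The count of calls depended on single arrays. It was 195 (143 lower, 52 higher) without knockout replicate 2, 7501 (3801 lower, 3700 higher) without knockout replicate 1, 56 (40 lower, 16 higher) without wild-type replicate 1 and 767 (385 lower, 382 higher) without wild-type replicate 2. With the 4 E15.5 arrays alone, which leave the spread to be estimated from 2 pairs, 4 probes passed, all lower in knockout, and 2844 had an unadjusted p under 0.05. The excess of lower over higher calls at 2-fold or more was present without each single array. It ran from 38 against 16 without wild-type replicate 1 to 743 against 569 without knockout replicate 1. When Cy3 had to be well above background on all 4 arrays, calls of any size numbered 506 lower and 475 higher. In the 12-array fit 24.6% of tested probes had an unadjusted p under 0.05, and the arrays of the 2 genotypes did not overlap for 24.3% of probes upward and 22.2% downward. Separation of 2 arrays from 2 is therefore common at E15.5 and is not by itself a result. The labels do not say whether replicate numbers pair the samples, and the fit took them as unpaired. A block for replicate number in the 12-array fit gave 2056 lower and 2171 higher calls, and it also raised the count with the 4 arrays alone. Nothing in the labels shows that replicates are different animals, and the p-values therefore cover the spread of these samples only, which could be technical.

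The reference channel gave a measure of array effects on Cy5 only, because the same reference RNA was hybridised on each array. Effects on Cy3 or on the footpad RNA cannot be seen in it. Tested in the same way, the Cy5 signal gave 13 calls between the E15.5 genotypes (1 higher, 12 lower, 0.0506% of probes), with 2024 probes at an unadjusted p under 0.05. Of 59 control probes none was called by limma and 3 had an unadjusted p under 0.05.

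The larger differences were concentrated among dim probes. Tested probes were split by mean Cy3 signal into 4 sets of 6421. In the dimmest set, with signals of 23.8 to 239, 171 were lower and 85 higher, with a median fold of 1.92. In the brightest set, from 5230 upward, 121 were lower and 142 higher, with a median fold of 1.59. Lower calls of 2-fold or more numbered 97 in the dimmest set, 35 and 23 in the middle sets and 15 in the brightest. The higher calls of that size numbered 24, 12, 9 and 3 in the same order, so lower calls outnumbered higher ones in each set. The median standard error of a difference was 0.20 in the dimmest set and 0.14 in the brightest.

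**Figure D1:**
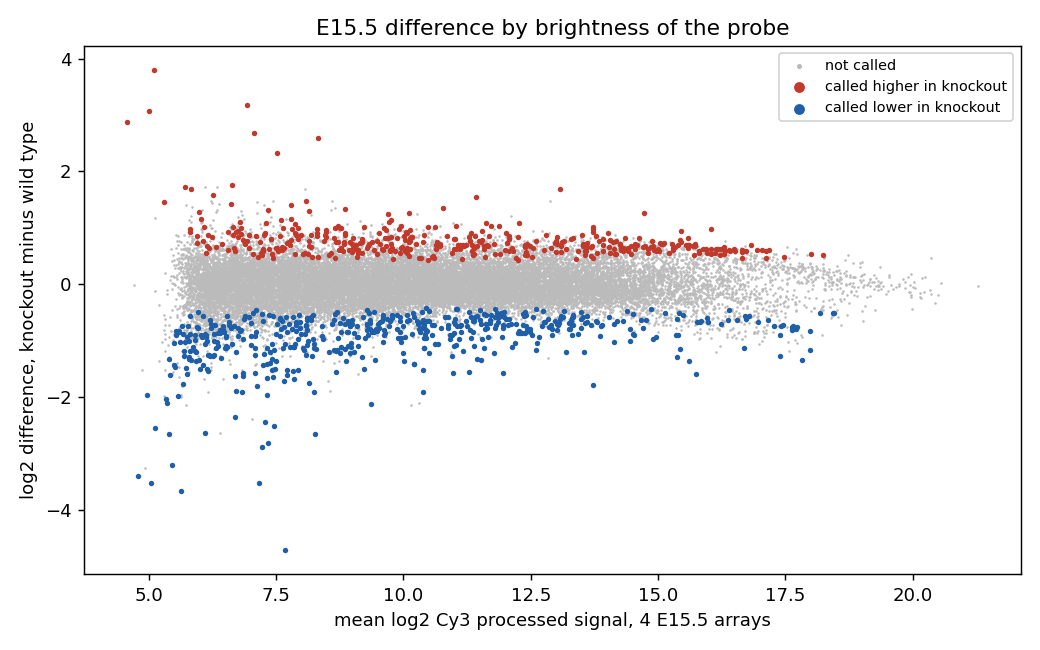
Log2 difference of knockout minus wild type at E15.5 (vertical axis) against the mean log2 Cy3 processed signal over the 4 arrays (horizontal axis) for the 25684 tested probes; each point is a probe, red called higher and blue called lower in knockout. The 170 calls at least 2-fold lower outnumber the 48 at least 2-fold higher. The dimmest 6421 probes hold 97 of the lower and 24 of the higher ones.

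Detection was counted by genotype. Cy3 was well above background on both wild-type arrays and neither knockout array for 323 probes, and on both knockout arrays and neither wild-type array for 16. The split itself sets the direction of these probes. As a description, 77 of the 323 passed the test, with a median log2 difference of -0.70 over the 323, and 7 of the 16, with a median of 1.32. These medians rest on signals near background in 1 genotype. After normexp correction and loess, which compress dim signals, they were -0.12 and 0.36.

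The 6 probes with the lowest differences were all well above background in wild type and on neither knockout array, so that only a lower bound of the fold could be set. For the dimmer genotype the bound took the probe's own signal or the array's lowest signal that counted as well above background, whichever was larger. It was computed per channel and is open to dye bias. Probe Z00008117-1 had log2 ratios of -0.68 and -1.41 in knockout against 3.82 and 3.53 in wild type. Its Cy3 signals were 45.5 and 27.7 in knockout and 1480 and 912 in wild type. The probe was at least 6.27-fold lower in knockout. Its difference in log2 ratio was -4.72 (limma adjusted p = 0.000162). Here and below, an adjusted p printed beside a bound belongs to the difference in log2 ratio and does not test the bound. Z00008117-1 was called under all 14 alternatives in which it could be fitted.

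Probe Z00032669-1 read 2.71 and 2.62 in knockout and 6.37 and 6.00 in wild type, at least 3.14-fold lower (limma adjusted p = 0.00117). The knockout arrays lay within 0.1 of each other, but their Cy3 signals (43.8 and 41.8) were not well above background. The reference of this probe was well above background on 0 of the 4 arrays, so its ratios are not measured sizes. Across alternatives its difference ranged from -3.71 to -1.98. Ratios for Z00071322-1 were -3.71 and -3.44 in knockout and 0.17 and 0.03 in wild type, which gave at least 1.73-fold (limma adjusted p = 0.000128), and it too was called under all 14 alternatives. Z00067510-1 stood at -1.69 and -1.76 against 1.60 and 1.36, at least 1.89-fold lower (limma adjusted p = 0.00663). The remaining 2, Z00010554-1 and Z00054665-1, had Cy3 signals of 70.6 to 145 in wild type and 8.78 to 13.2 in knockout, and their bounds were 1.36-fold and 1.25-fold (limma adjusted p = 0.0125 and 0.00134). Their reference was well above background on 0 of the 4 arrays. Without wild-type replicate 1, Z00010554-1 and Z00067510-1 were no longer called, and without knockout replicate 2, Z00010554-1 was not called.

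Among the 6 highest differences, Z00026847-1 was well above background in Cy3 on all 4 arrays. Its log2 ratios were 7.10 and 6.95 in knockout and 4.67 and 4.20 in wild type, a difference of 2.59 ± 0.32 (SE, 2 arrays per group; 6.02-fold, limma adjusted p = 0.0084). The Cy3 signals were 787 and 693 against 168 and 115, while the reference, at 5.62 to 6.58, was well above background on 0 of the 4 arrays, so that the fold rests on the Cy3 signal. Across alternatives the difference of Z00026847-1 ranged from 1.76 to 2.83. Z00043839-1 was above background only in knockout, with ratios of 2.51 and 1.84 against -1.91 and -1.35 in wild type, and was at least 1.55-fold higher (limma adjusted p = 0.00134). Groups that do not overlap were a condition for naming these probes, so their separation is not a further result.

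For 2 of these 6 probes the wild-type arrays differed from each other. Z00052349-1 read 1.61 and 1.78 in knockout but -0.65 and -2.29 in wild type, with 1 wild-type array above background (difference 3.17 ± 0.43, SE, limma adjusted p = 0.0104). Z00056369-1 read 3.83 and 4.20 in knockout but 2.23 and 0.45 in wild type (difference 2.68 ± 0.52, SE, limma adjusted p = 0.0304), also with 1 wild-type array above background. Its reference was well above background on 0 of the 4 arrays, and with normexp and loess its difference was 1.39, so that its size depends on the processing. Z00070204-1 and Z00056422-1 were above background in knockout alone and at least 1.33-fold and 1.22-fold higher (limma adjusted p = 0.0125 and 0.0345). For both, the reference was well above background on 0 of the 4 arrays. Z00056422-1 was the least stable of the 12, called in 6 of the 13 alternatives in which it was fitted. Of the 6 highest, Z00052349-1, Z00070204-1, Z00056422-1 and Z00056369-1 were not called without knockout replicate 2, Z00070204-1 and Z00056422-1 were not called without wild-type replicate 1, and Z00056422-1 and Z00056369-1 were not called without wild-type replicate 2. No probe of the 12 changed sign in any alternative.

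**Figure D2:**
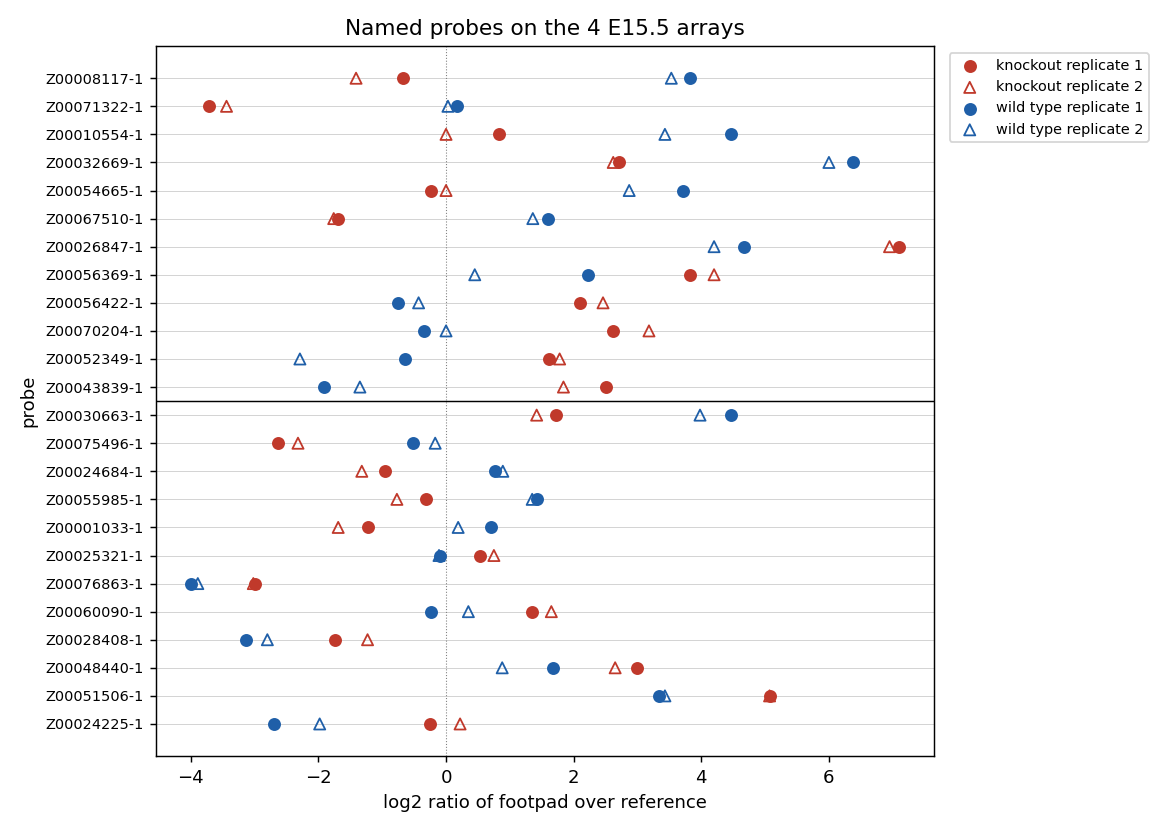
Log2 ratio of footpad over reference (horizontal axis) on each of the 4 E15.5 arrays for the 24 named probes (vertical axis), red for knockout and blue for wild type, filled circles for replicate 1 and open triangles for replicate 2. Above the line are the 6 lowest and 6 highest differences, below it the probes measured in both dyes on all 4 arrays and those with a stage difference. The named lowest and highest differences were chosen for groups that do not overlap, and the spread between the 2 arrays of a genotype is widest for wild type in Z00052349-1 and Z00056369-1.

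Calls of at least 1.5-fold numbered 464 lower (1.81% of tested probes) and 320 higher (1.25%). Among these, 340 lower and 271 higher had both dyes well above background on all 4 arrays. The 5 furthest in each direction were taken as examples after their values were seen. The sizes of their differences still depended on the processing. Across alternatives they ranged from -2.15 to -0.9 for Z00024684-1 and from -2.15 to -1.66 for Z00055985-1. The ranges were 0.51 to 1.72 for Z00060090-1 and 1.28 to 2.69 for Z00024225-1. Z00030663-1 had ratios of 1.72 and 1.42 in knockout and 4.47 and 3.98 in wild type, a difference of -2.66 ± 0.23 (SE, limma adjusted p = 0.00117), with Cy3 at 143 and 99.8 against 900 and 697. Z00075496-1 had -2.63 and -2.32 against -0.52 and -0.17, a difference of -2.13 ± 0.15 (limma adjusted p = 0.000461). The wild-type signal of the second probe was 1530 and 1470 and the knockout signal 270 and 310, and the genotypes were 4.38-fold apart.

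Z00024684-1 stood at -0.95 and -1.32 in knockout and 0.76 and 0.89 in wild type (difference -1.96 ± 0.17, SE, limma adjusted p = 0.00117). Z00055985-1 stood at -0.31 and -0.77 against 1.42 and 1.35 (difference -1.92 ± 0.16, SE, limma adjusted p = 0.00117). Both kept their call without each single array and lost it only in the fit to the 4 E15.5 arrays alone, as did Z00075496-1. Z00001033-1 was 3.75-fold lower (-1.22 and -1.69 against 0.71 and 0.19, limma adjusted p = 0.0091), and was not called without wild-type replicate 1.

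In the other direction, Z00048440-1 was the brightest of the measured examples besides Z00051506-1, which is described with the later stages. Its ratios were 3.00 and 2.65 in knockout and 1.68 and 0.88 in wild type, a difference of 1.55 ± 0.29 (SE, limma adjusted p = 0.0271), with Cy3 at 5710 and 3580 against 2740 and 1030. Z00060090-1 had 1.34 and 1.65 against -0.23 and 0.35, a difference of 1.43 ± 0.23 (SE, limma adjusted p = 0.0179). Z00028408-1 was 2.80-fold higher (limma adjusted p = 0.0091) and Z00024225-1 5.01-fold higher (limma adjusted p = 0.0328). The wild-type arrays of Z00048440-1 and Z00024225-1 lay 0.7 or more apart on the log2 scale, and these higher examples rested more on single arrays than the lower ones. Z00048440-1, Z00024225-1 and Z00060090-1 were not called without knockout replicate 2. Without wild-type replicate 1 the call was lost for Z00024225-1, Z00028408-1 and Z00060090-1, and without wild-type replicate 2 for Z00048440-1.

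Probes that overlap in sequence gave a second reading of some differences. Among tested probes, 678 pairs, made of 1206 probes, shared a run of at least 30 bases, and 10 pairs were identical over their whole length. Across pairs the 2 differences correlated at 0.91, as a description over spots of the same 4 arrays, and their median gap was 0.05 on the log2 scale. Of the 48 pairs with a call on either probe, both probes had the same sign in all 48, against 626 of all 678 pairs (92.3%). Both probes were called in 24 pairs, 20 lower and 4 higher. Such probes can bind the same RNA and are not independent, so this is a check of the spots and not of the samples.

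**Figure D3:**
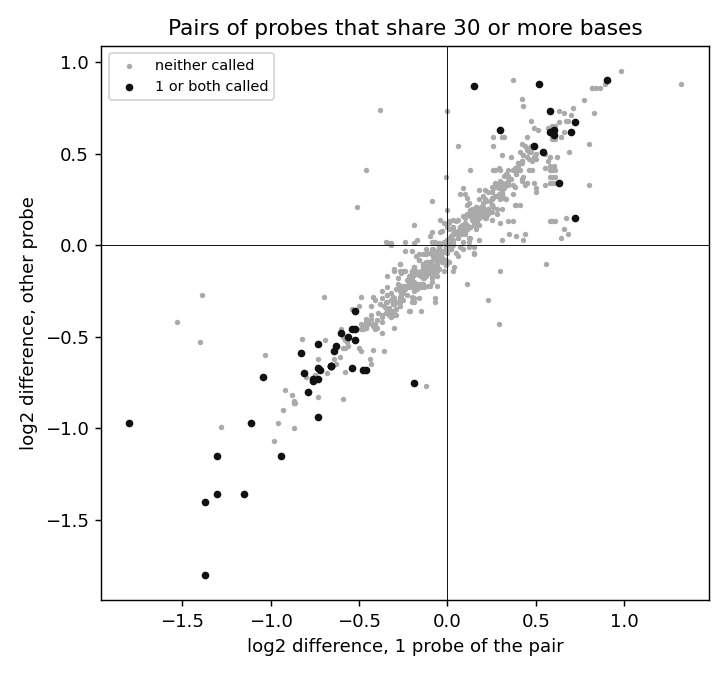
Log2 difference of knockout minus wild type at E15.5 for 678 pairs of tested probes that share at least 30 bases, 1 probe on each axis; black points are the 48 pairs with a call on 1 or both probes. The points follow the diagonal (correlation 0.91), and all 48 black points lie in the quadrants where both probes have the same sign.

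The 4 probes of the first overlapping set printed above were all called lower. Their knockout ratios ran from -1.82 to -1.71 on replicate 1 and from -2.40 to -2.17 on replicate 2, and their wild-type ratios from -0.85 to -0.47 and from -1.16 to -0.88. Their differences were -0.94, -1.30, -1.15 and -1.36 in the order printed, with standard errors of 0.16 to 0.19 (limma adjusted p = 0.0091 to 0.021). On each of the 4 probes replicate 2 was lower than replicate 1 in both genotypes. The pair that shares 57 bases read 3.87 and 4.43 (Z00025525-1) and 4.09 and 3.99 (Z00059502-1) in knockout, against 5.6 and 5.46 and 5.58 and 5.30 in wild type. Its differences were -1.37 ± 0.31 and -1.40 ± 0.13 (SE, limma adjusted p = 0.0445 and 0.00139). Another set, Z00017400-1, Z00072996-1 and Z00073717-1, had a difference of -0.66 on each of its 3 probes (limma adjusted p = 0.029 to 0.0295). These sets were chosen after their values were seen.

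Classes of probes were set from the later arrays, which share no array with the E15.5 values, and are described by their counts and medians beside those of all tested probes, whose median difference was 0.00. Taking both genotypes together, 370 probes were at least 2-fold higher at E17.5 than at E16.5, and of these 63 (17%) were already lower in knockout at E15.5 and 3 were higher. Their median difference was -0.44, and 296 of them (80.0%) were below 0. Class medians of the ratio were 0.59 and 0.40 on the knockout arrays and 1.08 and 0.84 on the wild-type arrays, so the genotypes did not overlap, although the 2 wild-type arrays differed by 0.24. At E16.5 the same probes stood at 0.67 and 0.42 in knockout and 1.14 and 1.21 in wild type, and at E17.5 at 2.16 and 2.17 against 2.23 and 2.20. The rise in knockout counts toward this class, so its choice is not independent of the genotype difference at E16.5. The 335 probes that fell at least 2-fold over the same interval had 7 calls in each direction and a median of 0.10, and their class medians lay between 1.76 and 1.82 on all 4 arrays.

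Calls were also counted by the level of the probe at the later stages. Among 3152 probes at least 4-fold above the reference at E16.5 and E17.5, 203 (6.44%) were lower in knockout at E15.5 and 60 (1.90%) higher, while their median difference was 0.00. Among the 2251 probes at least 4-fold below the reference, 15 (0.666%) were lower and 33 (1.47%) higher. The 20281 probes between these limits had 317 lower (1.56%) and 315 higher (1.55%) calls. The share of lower calls thus ran from 6.44% to 0.666% with falling level, beside 2.08% of all tested probes. The class at least 4-fold above the reference holds 158 of the 370 probes that rose from E16.5 to E17.5.

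The direction of the calls differed with base composition. Of 7015 probes with a GC content under 40%, 173 (2.47%) were lower and 87 (1.24%) higher. Of 7562 probes with 50% GC or more, 122 (1.61%) were lower and 164 (2.17%) higher. Medians of the latter class, each relative to the mean of the 4 arrays, were -0.03 and 0.07 on the knockout arrays and -0.01 and -0.04 on the wild-type arrays, so that knockout replicate 2 stood above the other arrays. The part of base composition in the calls was not tested.

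**Figure D4:**
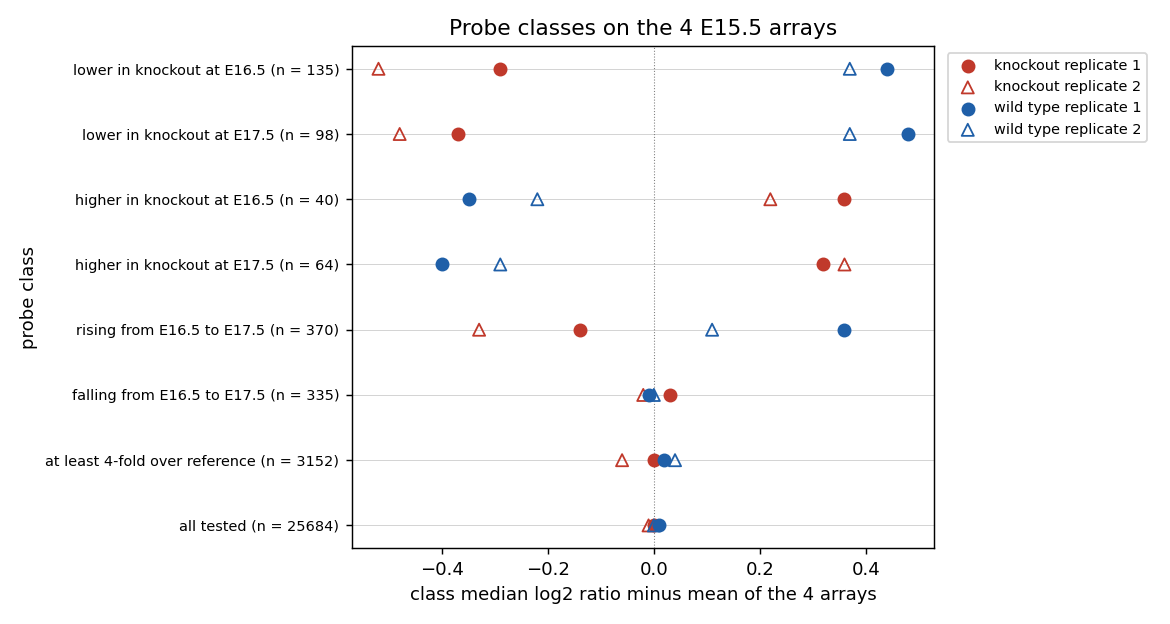
Median log2 ratio of each probe class on each E15.5 array, minus the mean of the 4 arrays (horizontal axis), for classes set from E16.5 and E17.5 arrays (vertical axis); red is knockout, blue wild type, circles replicate 1 and triangles replicate 2. Classes lower in knockout at a later stage and probes rising from E16.5 to E17.5 have both knockout arrays below both wild-type arrays, the classes higher in knockout have them above, and all tested probes lie within 0.01 of 0.

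The genotype differences of the later stages were present in part at E15.5. Of 135 probes called lower at E16.5 (0.526% of tested probes), 83 (61.5%) were called lower at E15.5 and none higher, with a median E15.5 difference of -0.71. Of 98 called lower at E17.5 (0.382%), 45 (45.9%) were lower at E15.5 and 2 higher, with a median of -0.52. Upward, 20 of the 40 probes called higher at E16.5 (0.156%) and 20 of the 64 at E17.5 (0.249%) were called higher at E15.5, with medians of 0.52 and 0.41, and none was called lower. Probes called lower at both later stages numbered 44, of which 33 were lower at E15.5, and 15 of the 20 called higher at both were higher at E15.5. In each of these classes the class medians of the 2 knockout arrays did not overlap those of the 2 wild-type arrays. The stages share no array, but the layout of genotypes on the slide was the same at each, and the fit shares 1 estimate of each probe's spread.

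The calls of E15.5 were then followed forward. The 535 lower calls had median differences of -0.82, -0.43 and -0.18 in order of stage. At E16.5, 470 of them (87.9%) were below 0 and at E17.5 413 (77.2%), where 48.0% and 51.0% of all tested probes were. Calls in the same direction were made for 83 of them at E16.5, for 45 at E17.5 and for 33 at both. The 408 higher calls had medians of 0.70, 0.00 and 0.02, and 205 (50.2%) and 222 (54.4%) were above 0 at the later stages, close to the 52.0% and 49.0% of all tested probes. Among higher calls of 2-fold or more, by contrast, 44 of 48 (91.7%) and 36 of 48 (75%) were above 0, and among lower calls of that size 154 of 170 (90.6%) and 141 of 170 (82.9%) were below 0. Without knockout replicate 1, when 3801 probes were called lower, the shares below 0 were 54.8% and 55.0%. The shares of higher calls above 0 were 73.1% and 65.4% without knockout replicate 2 (52 calls) and 100% and 68.8% without wild-type replicate 1 (16 calls), and with array weights they were 100% and 66.7% of 3 calls. Whether lower and higher calls differ in this was not tested.

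**Figure D5:**
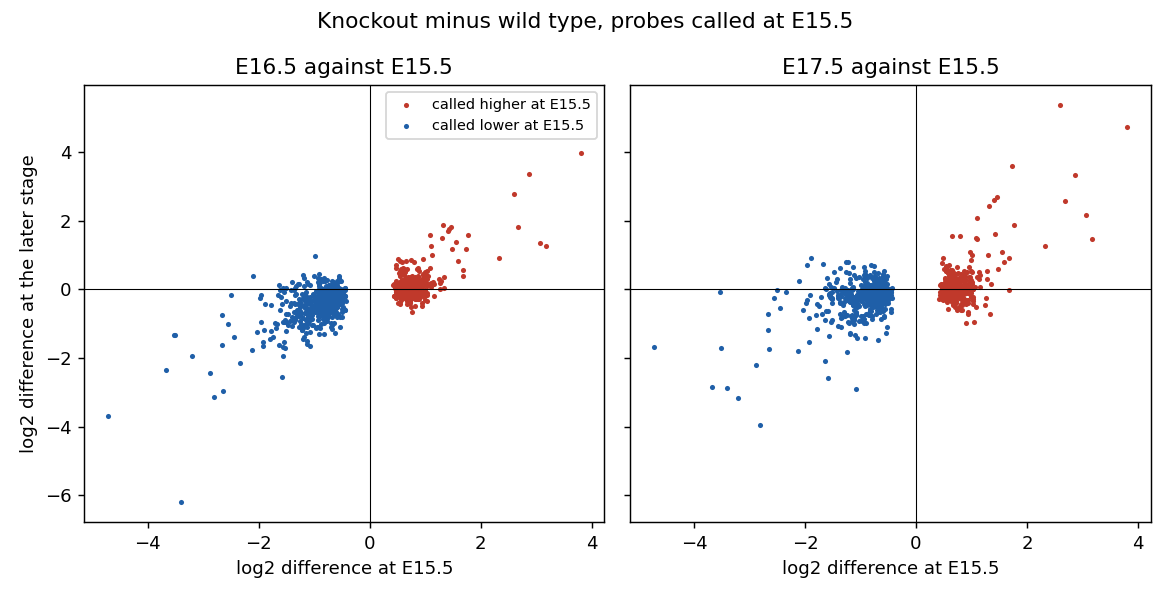
Log2 difference of knockout minus wild type at E16.5 (left) and E17.5 (right) on the vertical axis against that at E15.5 on the horizontal axis, for the 408 probes called higher (red) and 535 called lower (blue) at E15.5. Most blue points lie below 0 (87.9% and 77.2%), while the red points near the left edge of their cloud scatter about 0. Of the 48 red points at 2-fold or more, 44 lie above 0 at E16.5 and 36 at E17.5.

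Of the 12 furthest probes at E15.5, Z00043839-1 and Z00026847-1 were also called higher at E16.5 (limma adjusted p = 0.00146 and 0.00525) and at E17.5 (0.000331 and 9.78e-05). Z00054665-1 was also called lower at both (8.82e-05 and 0.00336). The sizes of these differences rest on signals near background and are not compared between stages. Of the measured examples, Z00075496-1 was lower at each stage, with differences of -2.13, -1.76 and -1.81. It was called at all 3 (limma adjusted p = 0.00145 at E16.5 and 0.000871 at E17.5). Across alternatives its difference at E15.5 ranged from -2.3 to -1.46. Z00060090-1 was likewise called higher at all 3 stages, with differences of 1.43, 1.75 and 1.61, of which the size at E15.5 varied with the processing. Z00030663-1 narrowed from -2.66 to -1.62 and -0.71, and at E17.5 it was not called (limma adjusted p = 0.213). Its change from E15.5 to the mean of the later stages, -1.49 ± 0.28 (SE), did not pass the test (limma adjusted p = 0.0866). For Z00001033-1 the differences were -1.91, -1.18 and -0.16, and the same test gave -1.24 ± 0.30 (limma adjusted p = 0.0971).

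The difference at E15.5 was tested against the mean of the differences at E16.5 and E17.5. By this test 4 probes passed (0.0156% of tested probes) and 5583 (21.7%) had an unadjusted p under 0.05. Of the 4, 3 were also called at E15.5, all higher in knockout. Z00051506-1 had log2 ratios of 5.07 on both knockout arrays and 3.34 and 3.43 on the wild-type arrays, with Cy3 signals of 20300 and 14600 against 5210 and 3660. It was 3.21-fold higher in knockout at E15.5 (difference 1.68 ± 0.11, SE, limma adjusted p = 0.000461), and its differences were 0.55 at E16.5 and -0.02 at E17.5. This bright probe thus stood apart from the dim signals among which most large differences lay. It was called at E15.5 under 13 of 14 alternatives, the exception being the fit to the 4 E15.5 arrays alone.

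Z00025321-1 read 0.53 and 0.75 in knockout and -0.10 and -0.11 in wild type at E15.5, a difference of 0.75 that stood at -0.51 and -0.61 at the later stages, where it was not called (limma adjusted p = 0.0978 and 0.0563). Z00076863-1 read -3.00 and -3.02 in knockout and -3.99 and -3.89 in wild type, a difference of 0.93 that was 0.06 at E16.5 and -0.66 at E17.5, where the probe was called lower (limma adjusted p = 0.0325). At E15.5 its Cy3 signal was well above background on 1 of the 2 wild-type arrays (80.2 and 66.1), so the size of that difference is uncertain. For all 3 probes the departure from the later stages had an adjusted p of 0.0295. The departure was lost for each of them without wild-type replicate 1, without wild-type replicate 2 and with array weights. At E15.5 itself, Z00025321-1 was not called without knockout replicate 2, and neither it nor Z00076863-1 was called without wild-type replicate 1. The other probe of the 4, Z00023605-1, was not called at E15.5.

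For a few probes a genome position could be given. Against the RefSeq windows from 250 bases before to 50 after each gene start (GRCm38.p6), 267 probes matched over their whole length, of which 172 were tested and 7 called (4.07%, against 3.67% of all tested probes), 5 higher and 2 lower. A match gives a position of the probe and does not name the transcript it measured. Only these windows were searched, so matches elsewhere in the genome were not looked for. Z00041441-1 lies at chr3:110143430-110143489 on the minus strand, from 17 bases before the start of Ntng1, a netrin-family protein of neurons, and on the same strand. Its ratios were 7.32 and 7.57 in knockout and 6.74 and 6.98 in wild type, a difference of 0.58 ± 0.13 (SE, limma adjusted p = 0.0388). Z00067713-1 lies at chr16:45158742-45158801 on the plus strand, upstream of Atg3, a conjugating enzyme of autophagy, on the same strand, and of Slc35a5, a solute carrier, on the opposite one. It read 2.80 and 2.77 in knockout and 3.81 and 3.31 in wild type (difference -0.77 ± 0.17, SE, limma adjusted p = 0.043). The share of calls in these windows was near that of all probes.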

How the data were processed

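Footpad RNA of 12 samples was measured on 2-colour arrays. Agilent Feature Extraction 9.5.1.1 read the spots, per the file headers. The deposited array files give the intensity of each spot in both dyes, background-subtracted and dye-normalized by that software, with substitute values where a signal is not above background, and the log10 ratio of red over green. A deposited table of the whole series gives the authors' log10 values for 25030 of 43451 spots. Differences between its columns correlated at 0.973 to 0.991 with those of the footpad-over-reference log10 ratio, with slopes of 1.02 to 1.05, which gives scale and direction. Its column medians were 2.556 to 2.588, and its centring stays unknown. It was used as an alternative only.

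The log10 ratio was turned to log2 of footpad over reference (times 3.322, sign turned), control spots (1417) and outlier spots were left out, and spots of a probe were averaged. limma 3.58.1 (R 4.3.3) was fitted to the means of the 6 groups over 12 arrays, with 6 residual degrees of freedom, 3.53 from the prior, and adjusted by Benjamini-Hochberg over 25684 probes. The script was tested on simulated data. The number of arrays limits the precision.

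Bounds used normexp (offset 50), loess and Aquantile. Probes named were the 6 lowest and 6 highest differences among calls of at least 1.5-fold whose groups did not overlap and whose higher group was well above background, and up to 4 per direction of the stage-difference calls that were also called at E15.5. The 10 examples measured on all 4 arrays and the overlapping sets were added after their values were seen. Members, lists and tests were chosen with earlier results of these data known. Classes used a change between E16.5 and E17.5 of 2-fold or more, a level at least 4-fold from the reference, calls at later stages, or GC content. Sequences come from the deposited files, and start-site windows from RefSeq (GRCm38.p6). The planned gene lists and marker lists were not run, since no probe was matched to a gene.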

Additional observations from a re-analysis of the deposited data

Results flagged for a closer look

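By limma's test of the difference between stages, 4 probes departed at E15.5 from the mean of the differences at E16.5 and E17.5, and 3 of them were also called at E15.5. Z00051506-1 departed by 1.42 ± 0.14 on the log2 scale (SE, limma adjusted p = 0.0295), with differences of 1.68, 0.55 and -0.02 in order of stage. Z00025321-1 departed by 1.31 (limma adjusted p = 0.0295), being higher in knockout at E15.5 and at -0.51 and -0.61 later, not called there. Z00076863-1 departed by 1.23 ± 0.13 (SE, limma adjusted p = 0.0295) and was called lower at E17.5 after being called higher at E15.5, where 1 of the 2 wild-type arrays was well above background. The stages lay on different slides, 1 each, and slide and stage cannot be told apart. The departure was called in 8 of 12 alternatives for Z00051506-1, 10 of 13 for Z00025321-1 and 8 of 11 for Z00076863-1, and without either wild-type array of E15.5 none of the 3 was.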

How the results depend on the processing

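The count of 943 calls at E15.5 was 1759 (879 higher, 880 lower) with normexp and loess, 581 with no filter on dim probes, 17 (3 higher, 14 lower) with array weights, 4 with the 4 E15.5 arrays alone, and 56 to 7501 when single arrays were left out. It stayed within 1.5 times under median centring (998), Cy3 alone (1287), the authors' values (791), the filter on all 4 arrays (981), and outlier spots kept (932). The labels number replicates alike in both genotypes. Deviations of same-numbered samples correlated at 0.50, 0.18 and 0.09 in order of stage. The labels do not say whether the numbers pair the samples, and the reported fit took them as unpaired. Whether same-numbered samples share an effect at E15.5, where the correlation was highest, was not tested. A replicate block gave 4227 calls (2171 higher, 2056 lower, against 408 and 535 in the reported fit) and, with the 4 E15.5 arrays only, 846 (333 higher, 513 lower).

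The 4 calls of the stage difference became 230 with normexp and loess, 12 with Cy3 alone, 29 with the authors' values, 27 with no filter, 2 with the filter on all 4 arrays, 2318 with the replicate block, 0 with array weights (limma, 3460 at an unadjusted p under 0.05), and 2 to 6060 without single arrays. The causes were not tested.

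With normexp and loess, class medians were -0.27 for probes rising from E16.5 to E17.5, 0.04 for falling ones, -0.14 for those at least 4-fold over the reference, -0.52 and 0.37 for those lower and higher at E16.5, and -0.43 and 0.27 for those lower and higher at E17.5. Cy3 alone gave 0.17 for falling probes, -0.11 for those at least 4-fold over the reference and 0.51 for those higher at E17.5. Without single arrays, falling probes ranged from 0.05 to 0.16, and those at least 4-fold over the reference from -0.04 to 0.04. No named probe changed sign. The gene lists could not be run. The 16321 probes not above background on 2 arrays limit what could be compared, since their signal does not separate from background.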
